A study of Mus musculus with 9 samples.

Results

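The 40 genes described here are expressed mainly or strongly by endothelial cells, the cells that line blood vessels, and were chosen by name: receptors of VEGF and angiopoietin, junction and surface genes, secreted genes, transcription factors and Notch genes. All 40 were measured, among 18193 genes on the array, each by its brightest probe set. The tissue profiled was small-intestinal mesenchyme, the connective tissue and muscle layers left after the epithelium had been removed, from C57Bl/6J mouse embryos at E18.5 (late gestation). The tissue was cultured on collagen for 48 h and treated for 24 h with Shh (Sonic hedgehog, 3 arrays), Ihh (Indian hedgehog, 3 arrays) or Vehicle (3 arrays). No group carried a mutation. Each of the 3 samples of a treatment was a random pool drawn from its 6 wells, so p-values measure the spread between pools. The sources used here do not give the ligand dose or what the vehicle contained. The study asked which genes of gut mesenchyme respond to hedgehog ligand.

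Endothelial cells receive growth signals through VEGF and angiopoietin receptors and are held together by junction proteins such as VE-cadherin. Transcription factors of the ETS and SOX families keep up the endothelial program, and Notch signalling between neighbouring endothelial cells sets tip, stalk and arterial identity. Hedgehog ligands of the gut epithelium act on the mesenchyme beneath it, where Ptch1 is both receptor and target gene. In cultured mesenchyme endothelial cells are a minority, so a lower array value can come from fewer endothelial cells or from less RNA per cell, which bulk samples cannot tell apart.

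Most of the endothelial genes were read at levels above those of the typical gene. Every one of the 40 lay above the array median (5.87 to 5.92 log2) on all 9 arrays, as did 10633 of the 18193 genes. Their median level was 8.98 log2, against 6.82 log2 for all genes, and Tal1 and Rasip1 (means of 6.335 and 6.796 log2) lay below the latter. Ptch1 separated the treatments, at 10.41, 10.88 and 10.35 log2 with Shh, 10.57, 10.49 and 10.98 log2 with Ihh, and 9.25, 9.11 and 9.06 log2 with Vehicle. Pairs of arrays correlated with r of 0.991 to 0.998 across probe sets. The sex-linked Xist was low on Shh 3, Vehicle 2 and Vehicle 3 (6.34 to 6.48 log2) and high on the other arrays (10.04 to 11.31 log2). The Y-linked Eif2s3y read 3.24, 3.17 and 8.44 log2 with Shh, 7.54 to 8.51 log2 with Ihh, and 6.24, 8.66 and 8.98 log2 with Vehicle. Embryo sex was therefore uneven over the pools, also between Shh and Vehicle. Its part in the differences was not tested apart from fits with Xist as a covariate. Within groups the 40 genes varied more than most, with a median SD of 0.148 log2, against 0.0955 log2 for all genes.

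With Shh the endothelial genes lay lower than with Vehicle, and 2 of them passed the test. Flt1, a VEGF receptor, fell 1.73-fold and Cdh5, which encodes VE-cadherin, fell 1.51-fold. These are 2 of 40 members past an adjusted p of 0.05 on the lower side, where 1.24% of all genes tested were, and 0 members passed on the higher side (0.489%). At an unadjusted p under 0.05, 26 of 40 were lower (10.7% of all genes) and 0 were higher (8.06%). The 3 Shh arrays lay wholly below the 3 Vehicle arrays for 24 members, against 11.4% of all genes. The median difference of the 40 was -0.30 log2, against 0.01 log2 for all genes, and 38 of 40 were below 0, against 46.1% of all genes. The members are genes of one cell type and are not independent of each other, so these counts describe them and test nothing as a group.

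Of 2 control genes read here at both ends, which can serve as signs of RNA quality, Gapdh moved largely with the groups. A lower difference means less signal at the 3' end relative to the 5' end. The 3' minus the 5' probe set of Gapdh gave -0.15, -0.16 and -0.18 log2 with Shh, -0.04, -0.17 and -0.19 log2 with Ihh, and 0.03, -0.08 and -0.05 log2 with Vehicle. The Gapdh 3' probe set alone lay at 12.95 to 13.01 log2 with ligand and 13.05 to 13.10 log2 with Vehicle. The 5' probe set overlapped, at 13.03 to 13.16 and 13.02 to 13.18 log2. The 3' minus 5' difference for actin overlapped between the groups, at 0.12 to 0.18 log2 with ligand and 0.15 to 0.28 log2 with Vehicle. Whether the Gapdh difference reflects RNA quality was not tested. With the Gapdh difference as a covariate, chosen after seeing the data, 0 members passed the adjusted threshold with Shh. At an unadjusted p under 0.05 there were then 2 members, Flt1 and S1pr1, beside 2.59% of all genes. The median of the 40 for Shh was then -0.11 log2, with 33 below 0. For both ligands and for Ihh no member was left at an unadjusted p under 0.05, with medians of -0.06 and -0.0048 log2. Between Shh and Ihh the same fit left 6 members lower at an unadjusted p under 0.05 (4.61% of all genes), with a median of -0.10 log2. The part of RNA quality in the lower values was not tested apart from this fit, in which Gapdh and treatment largely run together. The mean of the 40 against the Vehicle mean was -0.34, -0.29 and -0.29 log2 on the Shh arrays, -0.0007, -0.14 and -0.31 log2 on the Ihh arrays, and 0.07, 0.05 and -0.12 log2 on the Vehicle arrays.

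**Figure D1:**
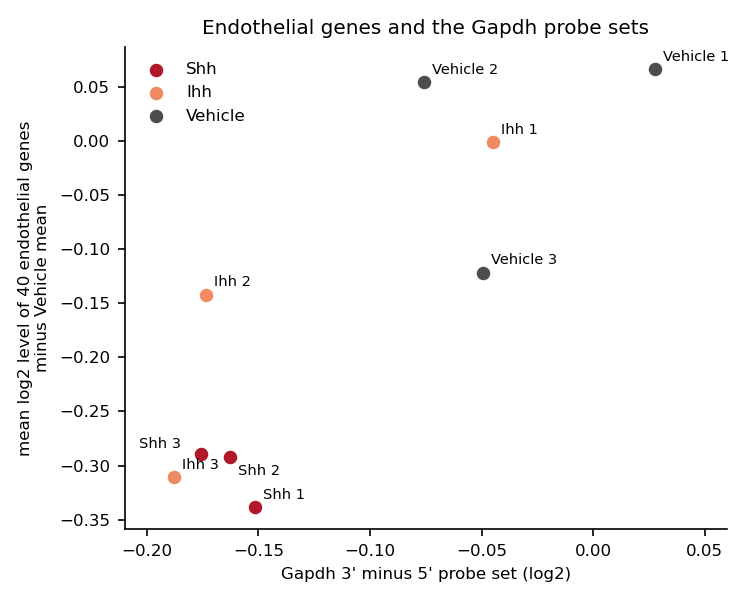
Mean log2 level of the 40 endothelial genes minus the Vehicle mean (vertical axis) against the 3' minus 5' difference of the Gapdh probe sets (horizontal axis, log2), 1 point per array. The 3 Shh arrays and Ihh 3 sit at the lower left, and Ihh 1 sits among the Vehicle arrays on both axes. Ihh 2 has a Gapdh difference like that of the Shh arrays (-0.17) but a mean of -0.14, near that of Vehicle 3 (-0.12).

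**Figure D2:**
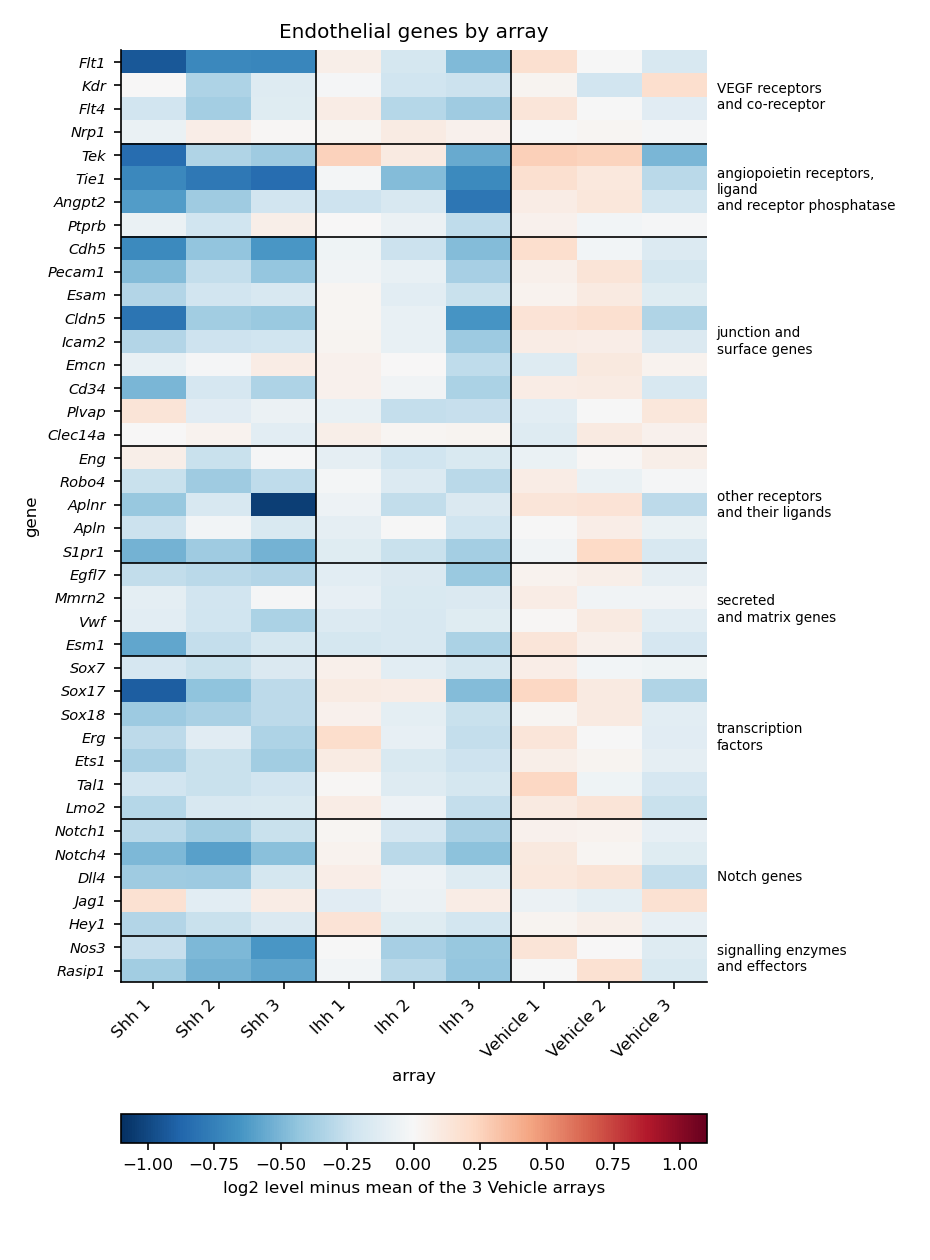
Log2 level of each endothelial gene on each array minus the mean of the 3 Vehicle arrays, with genes in rows by role and arrays in columns (blue is lower, red is higher). Most rows are blue on the Shh arrays and on Ihh 3, while Ihh 1 resembles the Vehicle arrays and Jag1, Nrp1 and Clec14a stay near 0.

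The arrays within a group were not alike. Ihh 1 was below the Vehicle mean for 18 of 40 members (50.2% of all genes), while Ihh 2 was for 35 (53.8%) and Ihh 3 for 37 (54.8%). On Shh 1, Shh 2 and Shh 3 the same counts were 35, 38 and 36, against 44%, 51.4% and 49.7% of all genes. Ihh 3 was below Ihh 1 for 37 members (92.5%, against 52.4% of all genes). Vehicle 3 was the lowest Vehicle array for 31 members (77.5%, against 32.5% of all genes). The highest of the 9 values lay on Vehicle 1 or Vehicle 2 for 31 members, 15 and 16 of them, against 15.2% and 7.32% of all genes.

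The region around the gene start is shown for 4 members: Flt1, called with Shh, and Tie1, Notch4 and Rasip1. They are the first 4 members by p for Shh against Vehicle among those with 1 such region in the source. Cdh5 and S1pr1 had a smaller p than Tie1 but no region there. Sequences are from RefSeq (GRCm38.p6), 5′ to 3′ on the gene's own strand, from 250 bases before to 50 after the start. Such windows were found for 22 of the 40 members, 27 windows in all. Capitals mark matches on either strand to CAGGAAG (an ETS site), TGGGAA (the Notch effector RBPJ), ACCACCC (GLI, the hedgehog effector) and ACAATG (SOX). The 4 windows lie at chr5:147725962-147726261 on the minus strand (Flt1), chr4:118489800-118490099 on the minus strand (Tie1), chr17:34564045-34564344 on the plus strand (Notch4) and chr7:45627287-45627586 on the plus strand (Rasip1).
Flt1: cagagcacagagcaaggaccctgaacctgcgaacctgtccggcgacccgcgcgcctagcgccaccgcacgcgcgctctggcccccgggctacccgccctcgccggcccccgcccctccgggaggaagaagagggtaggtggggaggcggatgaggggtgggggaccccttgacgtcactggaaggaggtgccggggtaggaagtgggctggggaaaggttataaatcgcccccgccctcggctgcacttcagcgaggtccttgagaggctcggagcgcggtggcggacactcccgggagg
Tie1: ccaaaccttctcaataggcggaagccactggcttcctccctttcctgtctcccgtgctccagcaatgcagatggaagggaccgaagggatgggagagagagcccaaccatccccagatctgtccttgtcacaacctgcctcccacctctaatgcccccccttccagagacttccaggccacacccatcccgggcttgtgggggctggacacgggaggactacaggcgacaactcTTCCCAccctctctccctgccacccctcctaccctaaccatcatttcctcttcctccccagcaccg
Notch4: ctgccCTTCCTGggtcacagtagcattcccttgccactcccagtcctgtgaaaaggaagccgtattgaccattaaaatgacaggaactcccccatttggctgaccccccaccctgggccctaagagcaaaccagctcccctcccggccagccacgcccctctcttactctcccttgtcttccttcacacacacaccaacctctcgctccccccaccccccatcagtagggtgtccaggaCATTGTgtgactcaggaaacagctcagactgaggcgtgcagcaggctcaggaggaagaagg
Rasip1: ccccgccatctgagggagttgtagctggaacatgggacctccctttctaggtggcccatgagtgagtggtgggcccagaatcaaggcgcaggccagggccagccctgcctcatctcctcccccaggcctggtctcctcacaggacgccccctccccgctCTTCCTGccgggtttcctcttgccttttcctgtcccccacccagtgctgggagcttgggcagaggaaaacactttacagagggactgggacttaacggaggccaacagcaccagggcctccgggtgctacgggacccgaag
The Flt1 window held none of the 4 words. In Tie1 the capitals are an RBPJ word 16 bases before the start, in Notch4 an ETS word 245 bases and a SOX word 11 bases before it, and in Rasip1 an ETS word 91 bases before it, all on the opposite strand. Over the 27 windows the ETS word was found in 9 (33.3%), in Emcn, Cd34, Robo4, Apln, Egfl7, Erg, Notch4 and Rasip1, against 13.3% of 32851 windows of all genes. The RBPJ word was in 5 of the 27 (against 25.6%), the SOX word in 3 (11.1%, against 12.6%) and the GLI word in 1, that of Robo4 (3.7%, against 4.61%). The ETS and RBPJ words share the letters GGAA, but no matches of different words overlapped in these windows, and a match is a description of the sequence and shows no binding.

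Among the VEGF receptors and co-receptor, Flt1 passed the test with Shh. Flt1 (VEGFR1, which binds VEGF tightly and limits its supply to Kdr) read 7.80, 8.03 and 8.01 log2 with Shh, 8.80, 8.55 and 8.25 log2 with Ihh, and 8.91, 8.73 and 8.56 log2 with Vehicle. All Shh arrays were below every Ihh and every Vehicle array, and Ihh overlapped Vehicle. The difference was -0.79 ± 0.14 log2 for Shh (SE, limma adjusted p = 0.0244) and -0.20 ± 0.14 log2 for Ihh (adjusted p = 0.754). Without 1 array the difference for Ihh ranged from -0.34 log2 (without Ihh 1) to -0.06 log2 (without Ihh 3). The call for Shh ended without any 1 of Shh 1, Shh 2, Shh 3, Ihh 2, Vehicle 1 or Vehicle 2, at an adjusted p of up to 0.097, and with the Gapdh covariate (-0.44 log2, adjusted p = 0.812). With Xist as a covariate it was -0.80 log2 (adjusted p = 0.053). All 4 probe sets of Flt1 were lower with Shh, by 0.56 to 1.01 on the log2 scale.

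Kdr (VEGFR2, the main signalling receptor of VEGF) read 8.33, 7.98 and 8.18 log2 with Shh, 8.31, 8.11 and 8.08 log2 with Ihh, and 8.35, 8.11 and 8.50 log2 with Vehicle. The groups overlapped, and Kdr differed by -0.16 ± 0.12 log2 with Shh (adjusted p = 0.506). Without 1 array this ranged from -0.26 log2 (without Vehicle 2) to -0.07 log2 (without Vehicle 3 or without Shh 2). Flt4, the VEGF-C receptor of lymphatic and sprouting endothelium, spanned 7.64 to 7.89 log2 with Shh, 7.62 to 8.10 log2 with Ihh and 7.89 to 8.15 log2 with Vehicle. Its highest Shh value was just below its lowest Vehicle value, and the difference was -0.24 ± 0.12 log2 (adjusted p = 0.331). Nrp1, a co-receptor that mesenchymal cells also express, spanned 10.61 to 10.76 log2 with ligand and 10.66 to 10.70 log2 with Vehicle, a difference of 0.00 ± 0.06 log2 for Shh.

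Of the angiopoietin system, Tie1 had the most negative difference after Flt1 with Shh. Tie1, an orphan partner of Tek in endothelial cells, read 7.65, 7.57 and 7.52 log2 with Shh, 8.33, 7.88 and 7.65 log2 with Ihh, and 8.53, 8.47 and 8.06 log2 with Vehicle. The Shh arrays were all below Vehicle, and Ihh spanned the gap between them. It differed by -0.78 ± 0.17 log2 with Shh, just short of the threshold (adjusted p = 0.0527), and by -0.40 ± 0.17 log2 with Ihh (adjusted p = 0.503). Tek (Tie2, the angiopoietin receptor) read 6.65, 7.16 and 7.10 log2 with Shh, 7.74, 7.58 and 6.93 log2 with Ihh, and 7.75, 7.73 and 6.99 log2 with Vehicle. Its groups overlapped through Ihh 3 and Vehicle 3, and the difference for Shh was -0.52 ± 0.25 log2 (adjusted p = 0.299). Angpt2, a Tek ligand released by activated endothelium, spanned 8.40 to 9.02 log2 with ligand and 8.997 to 9.32 log2 with Vehicle. Ptprb (VE-PTP, which removes phosphate from Tek) spanned 7.77 to 8.11 log2 with ligand and 8.01 to 8.09 log2 with Vehicle.

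Junction and surface genes included the second called gene. Cdh5 read 8.74, 9.02 and 8.81 log2 with Shh, 9.40, 9.21 and 8.97 log2 with Ihh, and 9.63, 9.42 and 9.30 log2 with Vehicle. Shh lay below Vehicle on every array, and Ihh overlapped both. It differed by -0.59 ± 0.12 log2 with Shh (adjusted p = 0.0464) and -0.26 ± 0.12 log2 with Ihh (adjusted p = 0.591). The call ended without any 1 of the same 6 arrays as for Flt1, at an adjusted p of up to 0.161, with the mean of its 2 probe sets (-0.37 log2, adjusted p = 0.133) and with the Gapdh covariate (-0.28 log2, adjusted p = 0.897). It also ended, at an adjusted p of 0.0503 to 0.0628, with Xist as a covariate, with quantile normalization again, with only the Shh and Vehicle arrays, and with probe sets tested singly.

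Pecam1 (CD31, an adhesion molecule of endothelial junctions) read 9.05, 9.26 and 9.10 log2 with Shh, 9.48, 9.44 and 9.16 log2 with Ihh, and 9.58, 9.66 and 9.33 log2 with Vehicle. Here too Shh was below every Vehicle array, by -0.39 ± 0.11 log2 on average (adjusted p = 0.108). Of the other junction and surface genes, the Shh arrays lay below the Vehicle arrays for Esam and Cldn5 (tight junction proteins), Icam2 (a leukocyte adhesion ligand) and Cd34 (a sialomucin), with differences of -0.24, -0.53, -0.26 and -0.34 log2. None passed the adjusted threshold (adjusted p = 0.17 to 0.242). Emcn (endomucin), Plvap (of endothelial diaphragms) and Clec14a (a surface lectin) differed by -0.01, -0.02 and -0.02 log2 with Shh. With Shh, 6 of the 9 junction and surface genes were lower at an unadjusted p under 0.05, against 10.7% of all genes, and the other 3 had overlapping values.

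**Figure D3:**
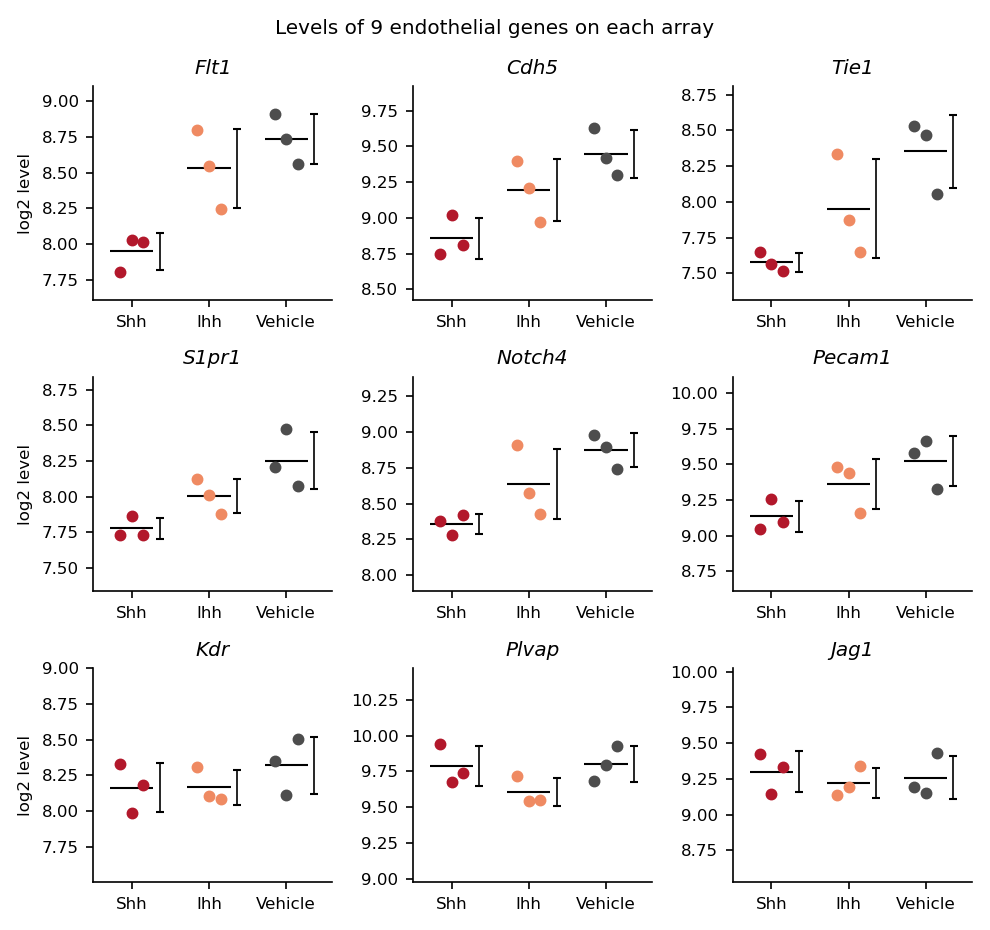
Log2 level of 9 endothelial genes on each array, with Shh, Ihh and Vehicle side by side, points for arrays, a line for the group mean and a bar for 1 SD (n = 3). Shh lies apart from Vehicle for Flt1, Cdh5, Tie1, S1pr1, Notch4 and Pecam1, and the groups overlap for Kdr, Plvap and Jag1.

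Of the 5 other receptors and ligands, 4 (S1pr1, Robo4, Aplnr and Apln) had their lowest mean with Shh and their highest with Vehicle, and 0 passed the adjusted threshold. S1pr1, the sphingosine 1-phosphate receptor that steadies vessel walls, read 7.74, 7.86 and 7.73 log2 with Shh, 8.12, 8.01 and 7.88 log2 with Ihh, and 8.21, 8.47 and 8.08 log2 with Vehicle. The Shh arrays were below all others, by -0.48 ± 0.10 log2 from Vehicle (adjusted p = 0.0516). Robo4, an endothelial guidance receptor, read 7.86, 7.71 and 7.82 log2 with Shh, 8.08, 7.95 and 7.81 log2 with Ihh, and 8.19, 8.03 and 8.09 log2 with Vehicle. Its Shh arrays were below the Vehicle arrays (-0.31 ± 0.08 log2, adjusted p = 0.0873). Aplnr, the apelin receptor, differed by -0.54 ± 0.20 log2 with Shh and spanned 8.25 to 9.23 log2 with ligand and 9.002 to 9.44 log2 with Vehicle. Apln, its ligand, and Eng, a TGF-beta co-receptor, differed by -0.15 and -0.06 log2 with Shh.

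Secreted and matrix genes held both members whose 6 ligand arrays all lay below the 3 Vehicle arrays. These are 2 of 40 members, near the share of 3.8% of all genes. Egfl7, a matrix protein secreted by endothelium, read 9.41, 9.38 and 9.36 log2 with Shh, 9.56, 9.52 and 9.27 log2 with Ihh, and 9.72, 9.75 and 9.58 log2 with Vehicle. Its highest ligand value was just below its lowest Vehicle value, and the difference for both ligands was -0.26 ± 0.07 log2 (adjusted p = 0.113). All 4 of its probe sets were lower, by 0.18 to 0.26 on the log2 scale, and 1 of them passed the adjusted threshold when probe sets were tested singly (adjusted p = 0.0449, where 0.672% of all probe sets were lower). Vwf (von Willebrand factor, which tethers platelets) read 7.15, 7.05 and 6.92 log2 with Shh, 7.12, 7.09 and 7.14 log2 with Ihh, and 7.28, 7.37 and 7.15 log2 with Vehicle. Shh 1 and Vehicle 3 were nearly equal, and the difference for both ligands was -0.19 ± 0.06 log2 (adjusted p = 0.213). Esm1 (endocan, a proteoglycan of tip cells) read 10.18, 10.49 and 10.56 log2 with Shh, 10.56, 10.58 and 10.40 log2 with Ihh, and 10.88, 10.81 and 10.57 log2 with Vehicle. Only Ihh 2 passed the lowest Vehicle value, and the difference for both ligands was -0.29 ± 0.10 log2 (adjusted p = 0.212). Mmrn2, an endothelial matrix protein, spanned 9.24 to 9.43 log2 with ligand and 9.40 to 9.53 log2 with Vehicle.

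All 7 transcription factors had negative differences with Shh, and 0 passed the adjusted threshold. Sox17, an arterial SOX factor, read 7.78, 8.24 and 8.39 log2 with Shh, 8.77, 8.76 and 8.21 log2 with Ihh, and 8.91, 8.78 and 8.35 log2 with Vehicle. It varied widely within each group, and differed by -0.54 ± 0.20 log2 with Shh (adjusted p = 0.195). Sox18, its relative in blood and lymphatic vessels, read 9.13, 9.17 and 9.24 log2 with Shh, 9.58, 9.42 and 9.29 log2 with Ihh, and 9.55, 9.63 and 9.41 log2 with Vehicle. Its Shh arrays were below all Ihh and Vehicle arrays, with a difference of -0.35 ± 0.08 log2 from Vehicle (adjusted p = 0.0737). Sox7, Ets1 (an ETS factor) and Tal1 (a factor shared with blood cells) also did not overlap between Shh and Vehicle, with differences of -0.20, -0.33 and -0.22 log2. Erg (an ETS factor of mature endothelium) and Lmo2 (a partner of Tal1) overlapped, at -0.25 and -0.22 log2. Ets1 did not give one answer over its 4 probe sets: the brightest was lower with Shh by 0.33, while a dimmer one was higher by 0.28 log2 (unadjusted p = 0.0122, adjusted p = 0.16).

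Of the 5 Notch genes, 4 had negative differences with Shh and 0 passed the adjusted threshold. Notch1, the widely used endothelial Notch receptor, read 9.01, 8.92 and 9.06 log2 with Shh, 9.33, 9.12 and 8.95 log2 with Ihh, and 9.35, 9.35 and 9.22 log2 with Vehicle. The Shh arrays lay below Vehicle (-0.31 ± 0.09 log2, adjusted p = 0.121). Notch4, the receptor most restricted to endothelium, read 8.38, 8.28 and 8.42 log2 with Shh, 8.91, 8.58 and 8.43 log2 with Ihh, and 8.98, 8.90 and 8.74 log2 with Vehicle. Shh was below all other arrays, by -0.52 ± 0.11 log2 from Vehicle (adjusted p = 0.0571), and its 2 dimmer probe sets, at a mean of 4.50 and 3.89 log2, moved by -0.06 and 0.02 log2.

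Dll4, the ligand of tip and arterial cells, read 7.48, 7.48 and 7.68 log2 with Shh, 7.95, 7.82 and 7.73 log2 with Ihh, and 7.99, 8.02 and 7.61 log2 with Vehicle. Vehicle 3 lay within the Shh values, and the difference was -0.33 ± 0.11 log2 (adjusted p = 0.166). Hey1, a target gene of Notch, read 8.14, 8.22 and 8.30 log2 with Shh, 8.61, 8.32 and 8.25 log2 with Ihh, and 8.49, 8.52 and 8.37 log2 with Vehicle. It lay below Vehicle on all Shh arrays (-0.24 ± 0.09 log2, adjusted p = 0.207). Jag1, a ligand that mesenchymal cells make as well, read 9.42, 9.14 and 9.34 log2 with Shh, 9.13, 9.19 and 9.34 log2 with Ihh, and 9.19, 9.15 and 9.43 log2 with Vehicle. Its groups overlapped, with a difference of 0.04 ± 0.10 log2 (adjusted p = 0.85) that turned negative with the mean of its 3 probe sets (-0.07 log2).

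Both signalling genes lay lower with Shh. Nos3, the endothelial nitric oxide synthase, read 7.07, 6.84 and 6.68 log2 with Shh, 7.32, 6.96 and 6.91 log2 with Ihh, and 7.47, 7.33 and 7.18 log2 with Vehicle. Rasip1, which is needed for vessel lumen formation in mice, read 6.66, 6.53 and 6.47 log2 with Shh, 7.01, 6.74 and 6.62 log2 with Ihh, and 7.04, 7.21 and 6.88 log2 with Vehicle. For both genes Shh was below Vehicle on all arrays and Ihh overlapped Vehicle. The differences for Shh were -0.46 ± 0.13 log2 for Nos3 (adjusted p = 0.107) and -0.49 ± 0.11 log2 for Rasip1 (adjusted p = 0.065).

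**Figure D4:**
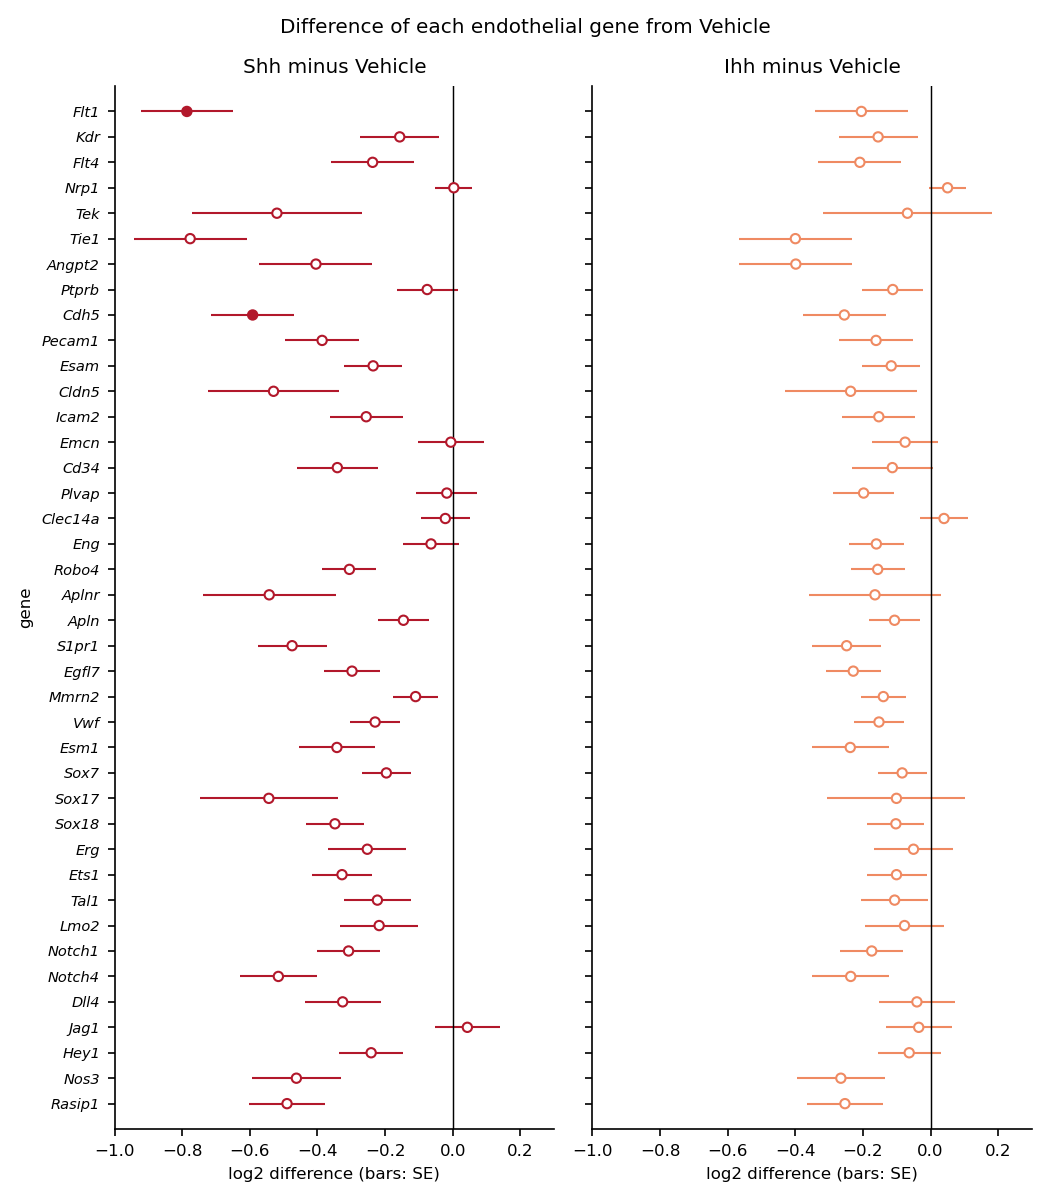
Difference of each endothelial gene from Vehicle, Shh on the left and Ihh on the right, in log2 with bars for 1 SE. Filled points (Flt1 and Cdh5 with Shh) are past an adjusted p of 0.05. The Shh and Ihh differences share the 3 Vehicle arrays.

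For Ihh against Vehicle, 0 of 40 members passed the adjusted threshold in limma, where 0.456% of all genes were lower and 0.192% higher. At an unadjusted p under 0.05, 5 were lower (Tie1, Angpt2, S1pr1, Egfl7 and Rasip1, against 5.63% of all genes) and 0 were higher (3.56%). The Ihh arrays lay wholly below Vehicle for 4 members (Eng, Egfl7, Mmrn2 and Vwf, against 8.15% of all genes). In all, 38 of 40 were below 0, against 54% of all genes, with a median of -0.15 log2, against -0.01 log2 for all genes. Same-numbered Ihh and Vehicle arrays deviated together, and with the replicate number as a block over all 9 arrays 9 members were lower at an unadjusted p under 0.05 (6.49% of all genes) and 0 passed the adjusted threshold. Leaving out an array changed the count of 5 by over 1.5 times for 6 arrays. It was 15 without Ihh 1 (6.13% of all genes), 11 without Vehicle 3 (5.74%) and 2 without Ihh 2 (4.1%). It was 1 without Vehicle 1 (4.9%), 1 without Vehicle 2 (4.58%) and 0 without Ihh 3 (4.13%).

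Shh and Ihh were set against each other on their own arrays. No member passed the adjusted threshold in limma, where 0% of all genes were lower and 0.011% higher. At an unadjusted p under 0.05, 7 members were lower with Shh (Flt1, Tie1, Cdh5, Sox18, Ets1, Notch4 and Dll4), against 5.97% of all genes, and 0 were higher (7.17%). The 3 Shh arrays lay below the 3 Ihh arrays for 8 members (Flt1, Tie1, S1pr1, Sox18, Ets1, Tal1, Notch4 and Dll4), against 7.93% of all genes. In Flt1 the difference between the ligands was -0.58 ± 0.14 log2 (adjusted p = 0.284), in Sox18 -0.25 ± 0.08 log2 (adjusted p = 0.314) and in Cdh5 -0.34 ± 0.12 log2 (adjusted p = 0.323). The median over the 40 was -0.14 log2, against 0.02 log2 for all genes, and 34 were below 0, against 44.2% of all genes. Without Ihh 1 the count of 7 was 1 (2.93% of all genes), and without Ihh 3 it was 20 (8%). It was 2 without Shh 1 (4.82%), 4 without Ihh 2 (3.45%) and 11 without Vehicle 3 (6.88%).

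With both ligands together against Vehicle, 0 members passed the adjusted threshold in limma (1.07% of all genes were lower and 0.434% higher). At an unadjusted p under 0.05, 18 were lower (8.41% of all genes) and 0 higher (5.25%), and the ligand arrays lay wholly below Vehicle for Egfl7 and Vwf (3.8% of all genes). In all 37 were below 0, against 49.5% of all genes, with a median of -0.22 log2, against 0.00 log2 for all genes. The 3 members above 0, Nrp1, Clec14a and Jag1, differed by 0.03, 0.01 and 0.00 log2. With every probe set tested singly for Shh, 37 of the 72 of these genes were lower at an unadjusted p under 0.05 (9.28% of all probe sets), 1 was higher (8.48%) and 64 were below 0 (44.4%). Of these, 3 passed the adjusted threshold, 2 of Flt1 and 1 of Egfl7 (0.856% of all probe sets). Of the 19 genes with several probe sets, 13 had all of them on the same side, and Erg, Ets1, Jag1, Notch4, Nrp1 and Ptprb did not.

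Of 28 other endothelial genes, 1 passed the adjusted threshold for both ligands. Stab2, a scavenger receptor of sinusoidal endothelium, rose, at 6.33 log2 with Shh and 6.29 log2 with Ihh, against 6.03 log2 with Vehicle (0.29 ± 0.06 log2, adjusted p = 0.0486). At an unadjusted p under 0.05, 11 of the 28 were lower, against 8.41% of all genes, with a median of -0.14 log2 over all 28. Ecscr, an endothelial surface protein, averaged 9.62 log2 with Shh and 9.81 log2 with Ihh, against 10.06 log2 with Vehicle (-0.35 ± 0.08 log2, adjusted p = 0.0819). Gimap6 and Cyyr1 differed by -0.25 and -0.24 log2 (adjusted p = 0.139 and 0.164). Of 7 adhesion and activation genes, among them Thbd, Selp, Vcam1 and Icam1, 0 were past an unadjusted p of 0.05 for both ligands.

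Ligands of these receptors were read beside them. Of 12 vascular ligands, 0 passed the adjusted threshold for both ligands, and 2 were lower and 1 higher at an unadjusted p under 0.05 (8.41% and 5.25% of all genes). Vegfa, the ligand of Flt1 and Kdr, averaged 9.21 log2 with Shh and 9.52 log2 with Ihh, against 9.76 log2 with Vehicle (-0.39 ± 0.13 log2 for both, adjusted p = 0.189). Angpt1, the activating ligand of Tek, averaged 4.78 log2 with Shh and 4.85 log2 with Ihh, against 5.25 log2 with Vehicle (-0.43 ± 0.11 log2, adjusted p = 0.0997). Angpt4, a further Tek ligand, was higher by 0.23 log2 for both (adjusted p = 0.081) and rose with Shh (adjusted p = 0.0402), at levels below the array median. Slit2, a guidance ligand, differed by -0.14 log2 (adjusted p = 0.386).

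Of 22 other Notch pathway genes, 0 passed the adjusted threshold, and 3 were lower and 1 higher at an unadjusted p under 0.05 (8.41% and 5.25% of all genes). The lower ones were Adam17, which cuts Notch receptors, Ncstn, a subunit of the gamma-secretase complex, and Rbpj, the effector that binds DNA (-0.22, -0.27 and -0.18 log2). The higher one was the ligand Dll1 (0.24 log2). Among 8 lymphatic markers 0 were called, and 1 was lower (Pdpn, -0.36 log2) and 2 higher (Itga9 and Reln, 0.20 and 0.32 log2) at an unadjusted p under 0.05, against the same shares of all genes.

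Markers of other cells moved in part with the same groups. Of 10 markers of pericytes, the cells that wrap small vessels, 4 were lower at an unadjusted p under 0.05 (Pdgfrb, Rgs5, Ndufa4l2 and Kcnj8, against 8.41% of all genes) and 0 passed the adjusted threshold. Their mean against the Vehicle mean was -0.30 to -0.16 log2 with Shh, -0.27 to -0.09 log2 with Ihh and -0.16 to 0.10 log2 with Vehicle. Their summed signal on a linear scale was 6847 to 8341 with Shh, 7962 to 9848 with Ihh and 8604 to 10880 with Vehicle. The sum of the 40 endothelial genes was 19180 to 20290 with Shh, 19630 to 23840 with Ihh and 22250 to 25040 with Vehicle. Of 14 leukocyte and macrophage markers, 4 passed the adjusted threshold for both ligands on the lower side (Cybb, Adgre1, Itgam and Lyz2, against 1.07% of all genes). Laptm5 passed it on the higher side (0.434%), and 6 of the 14 lay above 0 and 8 below. The summed signal of the 14 was 28650 to 29380 with Shh, 27590 to 28450 with Ihh and 28230 to 32060 with Vehicle. Of 9 red cell and megakaryocyte markers, 1 passed the adjusted threshold for both ligands, on the lower side, where 1.07% of all genes did. It was Ppbp, a platelet chemokine, which fell by 0.96 on the log2 scale (adjusted p = 0.00318). Yet 7 of the 9 lay above 0 for both ligands, with a median of 0.05 log2. The linear sum of the 9, in which bright genes weigh most, was 6652 to 7790 with Shh, 6680 to 6944 with Ihh and 8945 to 9289 with Vehicle. Of 6 fibroblast markers 0 passed, with Col1a1 and Dcn lower (-0.57 and -0.21 log2) and Lum higher (0.26 log2) at an unadjusted p under 0.05. Epithelium markers (8) and mesothelium markers (6) had 0 called, and the epithelium mean ranged from -0.77 to 0.92 log2 over the Shh arrays, -0.18 to 0.65 log2 over the Ihh arrays and -0.83 to 0.80 log2 over the Vehicle arrays. No marker is at 0 on these arrays, whose lowest values are near 2.78 log2, and the part of these cells in the endothelial values was not tested.

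**Figure D5:**
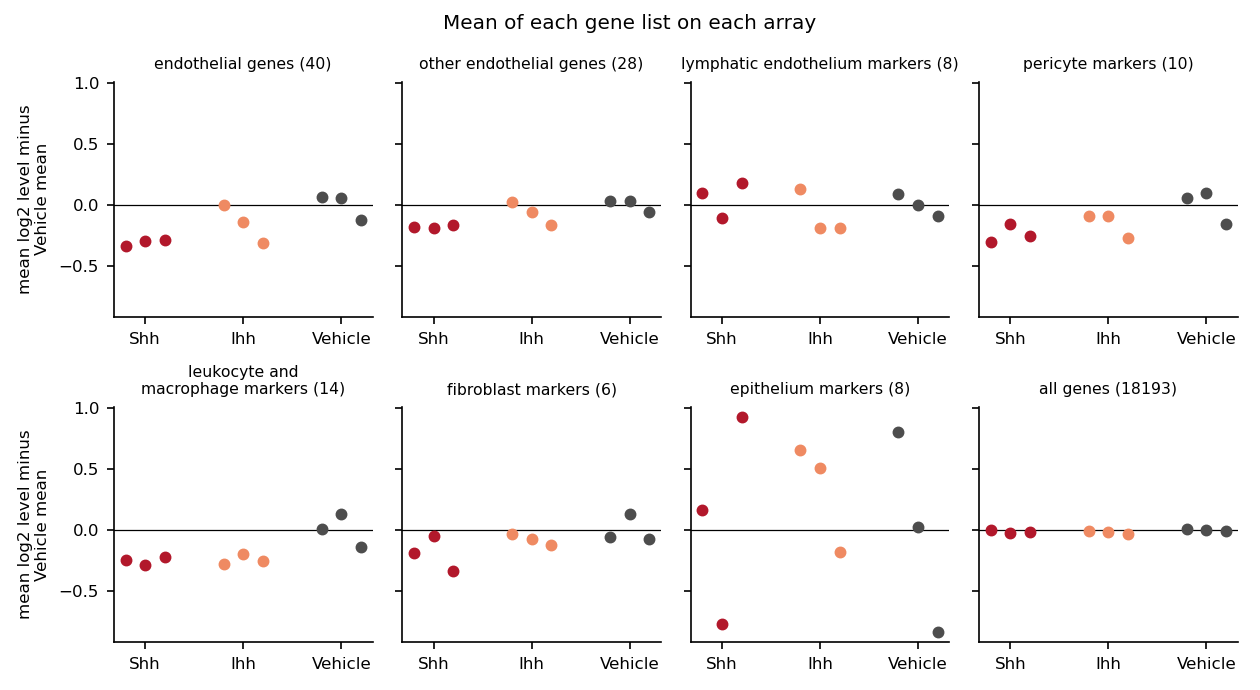
Mean log2 level of each gene list on each array minus the Vehicle mean, with Shh, Ihh and Vehicle side by side and the number of genes in brackets. The endothelial genes lie at -0.34 to -0.29 on the Shh arrays, the leukocyte markers at -0.28 to -0.22, and the epithelium markers spread widely within every group.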

How the data were processed

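The authors deposited log2 expression values for 45101 probe sets on each of 9 Affymetrix arrays (6 ug of total RNA labelled per the labels' protocols). Per the submitters' processing notes they used GCOS and RMA, a method of background correction, normalization across arrays and probe summary, whose versions the sources used here do not give. It hides a shift common to all genes and compresses low values. No batch or scan date is given in the sources used here. Arrays have no read depth, and their number limits the precision.

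Probe sets were named by the platform annotation (34945 with 1 symbol, 932 with several, 9160 with none, 64 controls). Each of 18193 genes was represented by the brightest of its probe sets with 1 symbol, by mean over the arrays. A model with 1 mean per group was fitted to the 9 arrays with limma 3.58.1 in R 4.3.3, with two-sided p-values adjusted by Benjamini-Hochberg over all genes and a threshold of 0.05. Every adjusted p in the text comes from limma. The members, the other lists and the alternatives were chosen with earlier results of these data known. All 40 members are named. Values on every array are given for members past the threshold, for the 12 with the smallest p for both ligands, for the 3 with the smallest p between the ligands, and for Pecam1, Cdh5, Kdr, Flt1, Tek, Tie1, Notch1, Jag1, Dll4, Hey1, Sox17 and Vwf. Of the other lists up to 4 genes by smallest p are named, by group mean or difference. Deviations of same-numbered arrays correlated at 0.226 to 0.543 for Ihh and Vehicle, where every pair was above 0.1, and at -0.158 to 0.141 for Shh and Vehicle. The labels give no pairing. The block is set beside the Ihh result, and its counts for the other comparisons are given only among the alternatives. On simulated data for Shh against Vehicle (18193 genes, 200 changed, 10 runs) the fit called 16.6% of the genes given a 1.25-fold change, 81.7% of those given 1.5-fold and 97% of those given 2-fold. The changed genes were drawn from all genes, whose median SD within groups was 0.0955 log2, against 0.148 log2 for the 40. The shares for the 40 themselves were not simulated. Sequence windows came from RefSeq.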

Additional observations from a re-analysis of the deposited data

How the results depend on the processing

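The counts of members lower at an unadjusted p under 0.05 and past the adjusted threshold were recomputed under each alternative, and the array number limits all of them. With the replicate number as a block, 3 members were past the adjusted threshold for both ligands and 8 for Shh. At an unadjusted p under 0.05, 9 (Ihh, 6.49% of all genes) and 12 (Shh against Ihh, 7.6%) were lower. All genes called were then 379 for both ligands, against 274 without the block, and 522 for Shh, against 314. Same-numbered arrays correlated above 0.1 in every pair of Ihh and Vehicle but not of Shh with either. For Shh the adjusted count of 2 was 1 with quantile normalization again, 5 with each array centred on its median, 6 when dim genes were left out, 4 when less specific probe sets were, 5 with a trended variance, 12 with array weights, 3 with only the groups compared, 3 with probe sets tested singly and 0 with Xist or Gapdh as a covariate. Calls over all genes moved too, to 1017 with array weights and 13 with Gapdh, against 314. Probe sets tested singly are counted of 72 and genes without less specific ones of 33, not of 40. For both ligands the adjusted count was 12 with array weights, where 1126 of all genes were called, against 274. It was 1 with probe sets tested singly, where 334 of all probe sets were called. Lower at an unadjusted p were, for both ligands, 28 with array weights (12% of all genes), 29 of 72 with probe sets tested singly (7%) and 0 with Gapdh (2.64%). For Ihh these were 9 with centring (6.52%), 8 with the mean of probe sets (5.66%) and 3 of 33 without less specific probe sets (5.29%). With array weights they were 18 (10%), with probe sets tested singly 10 of 72 (4.55%) and with Gapdh 0 (3.3%). For Shh there were 2 with Gapdh (2.59%). For Shh against Ihh there were 4 with quantile normalization (4.37%) and 11 of 72 with probe sets tested singly (6.46%). Fits without 1 array gave, for both ligands, 0 to 4 adjusted, 10 to 27 unadjusted (5.63% to 9.48% of all genes) and medians of -0.284 to -0.175 log2. For Shh they gave 0 to 9, 14 to 29 (7.14% to 12.1%) and -0.345 to -0.264 log2. For Ihh they gave 0, 0 to 15 (4.1% to 6.13%) and -0.208 to -0.0635 log2. For Shh against Ihh they gave 0, 1 to 20 (2.93% to 8%) and -0.227 to -0.0693 log2. For Shh 9 passed without Vehicle 3, 6 without Ihh 3, 5 without Ihh 1 and 0 without any 1 of the other 6 arrays. Calls over all genes were then 675, 393, 310 and 80 to 164, against 314 with all arrays. Unadjusted there were 16 without Shh 1 (10.5% of all genes), 14 without Vehicle 1 (7.14%) and 16 without Vehicle 2 (8.32%). For both ligands the unadjusted count was 10 without Vehicle 1 (5.63%), 10 without Vehicle 2 (6.63%) and 27 without Vehicle 3 (9.48%). The adjusted threshold was passed by 4 without Ihh 1 (274 of all genes) and 2 without Vehicle 3 (416 of all genes). With Gapdh as a covariate the medians were -0.0611 (both), -0.109 (Shh) and -0.0048 (Ihh) log2. Apart from these, 1169 values of single genes kept their side of the threshold, 65 passed it newly, 20 lost it and 37 changed sign. With the Gapdh covariate the sign changed for Kdr (0.0282 both, 0.0493 Shh, 0.0070 Ihh), Tek (0.0668 both, 0.249 Ihh), Hey1 (0.0271 both, 0.0948 Ihh), Jag1 (-0.0855 both, -0.0571 Shh), Flt1 (0.0710 Ihh), Sox17 (0.109 Ihh), Sox18 (0.0042 Ihh), Notch4 (0.0142 Ihh), Dll4 (0.0675 Ihh) and Nos3 (0.0194 Ihh). Jag1 was -0.0150 log2 for both ligands with centring, -0.0455 with the mean of probe sets, -0.0701 for Shh with that mean and 0.0177 for Ihh with array weights. Without 1 array Jag1 ranged from -0.0496 to 0.0896 log2 for both ligands, -0.0178 to 0.129 for Shh and -0.0931 to 0.0504 for Ihh. For Ihh, in such fits, Tek ranged from -0.320 to 0.175 log2, Sox17 from -0.265 to 0.0859, Dll4 from -0.172 to 0.0313 and Hey1 from -0.171 to 0.0082. The causes were not tested. For both ligands, the fit with only the groups compared is the same fit and gave no further value.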
